A study of Macaca mulatta with 20 samples.

Results

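Solute carriers are the membrane proteins that move nutrients, ions, metals and metabolites across the plasma membrane and the membranes of organelles. They were followed over monocytes, B cells, cytotoxic T cells and helper T cells of rhesus macaques. The members are all probes of the expression table whose platform symbol begins with SLC, a family number, A and a member number, except the 2 probes of SLC30A1. This gave 78 of 7303 probes, which stand for 70 gene symbols. Of these, 8 symbols have 2 probes. SLC2A4RG also matched the pattern, although it is a transcriptional regulator named after a glucose carrier and not a carrier itself. Symbols are those of the human array annotation, and 66 of the 70 are found by name in the macaque RefSeq table.

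The cells were taken from the blood of 5 adult females, out of the mononuclear fraction. The animals belonged to 5 social groups and held dominance ranks from 1 (high) to 5 (low), with 1 animal per rank. Monocytes, B cells, cytotoxic T cells and helper T cells (titles CD14, CD20, CD8 and CD4) were each measured on 1 array per animal, which made 20 arrays. No treatment, genotype or sorting gate is named in the labels. With 1 animal per rank and group, neither rank nor group can be told apart from the animal. Levels below are the deposited values, taken as log2 since their base is not stated, and differences between cell types are taken within a probe.

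The 2 arrays of cytotoxic T cells and B cells of the rank 4 animal stood apart and were left out. They correlated at 0.148 to 0.193 with the other 18 arrays and at 0.876 with each other. In the 18 arrays used (5 of monocytes, 4 of B cells, 4 of cytotoxic T cells, 5 of helper T cells), the populations carried the genes of their labels. The 5 measured monocyte markers averaged 12.69 to 13.59 in monocytes and at most 8.32 in the lymphocyte arrays. The 6 T cell markers averaged 7.76 to 7.81 in monocytes, 8.29 to 9.01 in B cells, 11.07 to 11.77 in cytotoxic T cells and 11.06 to 11.97 in helper T cells, so B cells lay above the monocyte range. CD4 itself was dim, at 8.22 to 8.85 in helper T cells, 7.81 to 8.30 in monocytes and at most 7.79 in the other types. CD8A was at 13.84 to 14.36 in cytotoxic T cells and at most 8.54 in monocytes. It reached into helper T cells (8.31 to 11.29) and B cells (8.20 to 10.97). CD8B, at a mean of 9.25 in cytotoxic T cells, was at most 8.01 in helper T cells and 7.95 in B cells. The B cell marker CD79B lay between 13.15 and 13.90 in B cells and at most at 8.34 elsewhere. In bulk samples fewer cells of a type and less RNA per cell cannot be told apart.

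Immune cells differ in what they import. Glucose and amino acid carriers of the plasma membrane feed growth and activation in lymphocytes and myeloid cells. Carriers of lysosomes and endosomes set the acidity, metal content and peptide content of the compartments in which ingested material is broken down. Mitochondrial carriers, the SLC25 family, pass nucleotides, cofactors and metabolites through the inner mitochondrial membrane, and the SLC35 family loads the Golgi with nucleotide sugars for glycosylation. The SLC30 and SLC39 families move zinc in opposite directions, SLC30 out of the cytosol and SLC39 into it.

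Cell types differed in 55 of the 78 probes (70.5%) by limma's moderated F test with a Benjamini-Hochberg adjusted p under 0.05 over all probes, and 67.4% of all probes passed the same test. The solute carriers were thus called about as often as the table at large. The highest cell type mean lay below the median of the whole table (8.39) for 18 of the 78 probes (23.1%), against 33.8% of all probes. Among these dim members were the glycine carriers SLC6A5 and SLC6A9, the proline carrier SLC6A20, the nucleoside carrier SLC28A3 and the iron carrier SLC11A2. No detection call was used here, so a dim level is not an absence.

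**Figure D1:**
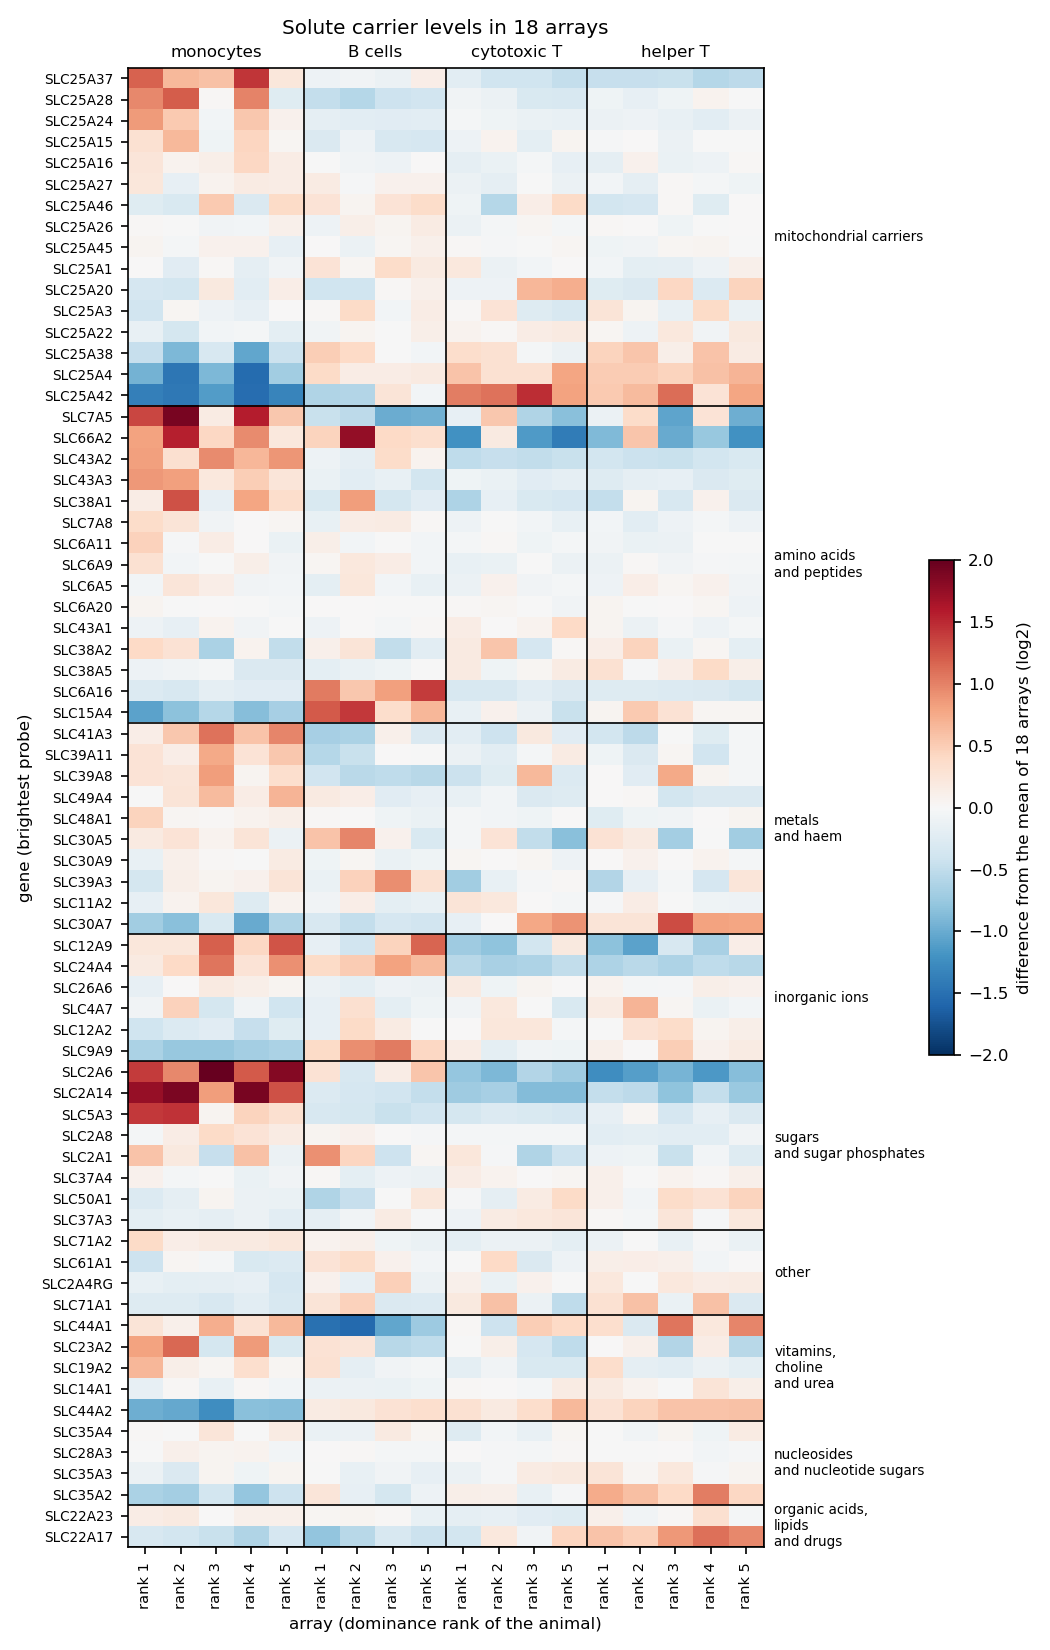
Levels of 70 solute carrier genes (brightest probe of each, rows) in 18 arrays (columns), coloured by the difference from the probe's mean over the 18 arrays on the log2 scale, with colours saturating at 2 in either direction. Rows are grouped by substrate class and ordered within a class by the difference of monocytes from lymphocytes. SLC2A6 and SLC2A14 are red in all 5 monocyte arrays, and SLC25A42, SLC25A4 and SLC44A2 are blue in them.

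Monocytes were set against the mean of the 3 lymphocyte types within animals. In the rank 4 animal helper T cells were the only lymphocytes used, so counts of animals compare its monocytes with these alone. In this comparison 51 of the 78 solute carrier probes differed (65.4%), against 65.2% of all probes. The 51 split into 31 higher in monocytes (39.7%), against 28.7% of all probes, and 20 lower (25.6%), against 36.5% of all probes. The median difference was 0.05 log2 over the solute carriers and -0.01 over all probes, and the median size regardless of sign was 0.26 log2 in both. With the 2 rank 4 arrays included, 35 members differed, all of them among the 51, against 38.7% of all probes. Among carriers given below, the calls of SLC44A1 (0.27), SLC19A2 (-0.01), SLC2A8 (0.19), SLC25A16 (0.22), SLC25A27 (0.12), SLC35A4 (0.12), SLC22A23 (-0.14) and SLC61A1 (-0.16) were lost there. So were those of SLC48A1 (-0.05), SLC38A5 (-0.28) and SLC25A22 (-0.64). The dimmer probes of SLC24A4 (-0.05), SLC15A4 (-0.41) and SLC30A5 (0.10) and the brighter one of SLC71A2 (0.13) lost theirs too. Every monocyte array lay above every lymphocyte array for 7 probes (8.97%) and below for 9 (11.5%), against 10.2% and 11.9% of all probes. At a size of at least 1 log2 there were 7 probes higher (8.97%, against 6.74% of all probes) and 5 lower (6.41%, against 5.27%).

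Taken against single lymphocyte types, monocytes differed in 51 probes from helper T cells (65.4%, against 61.5% of all probes), in 51 from cytotoxic T cells (65.4%, against 59.3%) and in 39 from B cells (against 53.6%). Monocytes were higher than each other type for 19 probes (24.4%, against 18.4% of all probes) and lower than each for 12 (15.4%, against 22.5%). B cells differed from helper T cells in 30 probes (38.5%, against 25.2%) and from cytotoxic T cells in 22 (28.2%, against 24.9%). No member was highest or lowest in cytotoxic T cells against each other type by limma (against 0.904% and 0.123% of all probes), and none was lowest in helper T cells (against 0.110%).

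**Figure D2:**
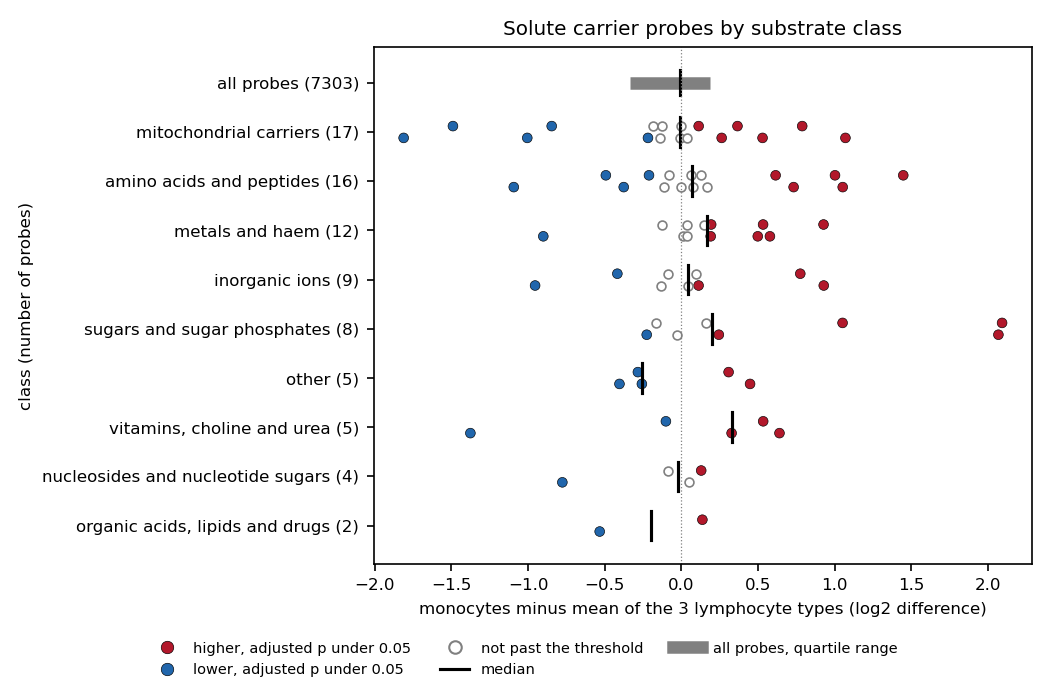
Difference of monocytes from the mean of the 3 lymphocyte types (log2, horizontal axis) for each of the 78 solute carrier probes, by substrate class (vertical axis, with the number of probes). Filled points passed an adjusted p of 0.05, open points did not, black ticks are medians, and the grey bar spans the quartiles of all 7303 probes. The widest range from lowest to highest probe is that of the mitochondrial carriers, the largest class, from -1.81 to 1.07.

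Sugar carriers held the largest rises in monocytes. SLC2A6, a member of the GLUT family that sits on lysosomal membranes, was at 10.49, 10.05, 11.24, 10.32 and 10.92 log2 in the monocytes of ranks 1 to 5. In B cells of ranks 1, 2, 3 and 5 it was at 9.37, 8.77, 9.23 and 9.65, and it lay between 7.85 and 8.50 in the T cell arrays. The 3 levels did not overlap: monocytes were highest, B cells intermediate and T cells lowest. The rise in monocytes was 2.09 ± 0.11 log2 (SE of the fit, adjusted p = 3.60e-09), in 5 of 5 animals. The nearest type, B cells, was also lower than monocytes, by a difference of 1.40 ± 0.15.

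SLC2A14 rose by almost as much, 2.07 ± 0.10 log2 (adjusted p = 6.52e-10). Its levels were 10.50, 10.63, 9.59, 10.65 and 10.03 in monocytes of ranks 1 to 5, and all 13 lymphocyte arrays lay between 7.88 and 8.48. In humans SLC2A14 is a near-identical copy of SLC2A3, the high-affinity neuronal and leukocyte glucose carrier. The macaque RefSeq table holds SLC2A3 and no gene under the symbol SLC2A14, so which of the pair the probe reads in macaque RNA was not tested. SLC5A3, which couples myo-inositol uptake to sodium, was at 9.79, 9.81, 8.43, 8.82 and 8.69 in monocytes and between 7.92 and 8.41 in lymphocytes. It rose by 1.05 ± 0.16 (adjusted p = 5.52e-05), and the monocytes of ranks 1 and 2 were the highest.

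The ubiquitous glucose carrier SLC2A1 did not pass in monocytes against the lymphocyte types together, with a difference of 0.16 ± 0.09 (adjusted p = 0.139). This difference averages unlike types, since monocytes exceeded helper T cells by 0.34 ± 0.11 (adjusted p = 0.0119 by limma). Monocytes also exceeded cytotoxic T cells, by 0.29 ± 0.12 (adjusted p = 0.0473 by limma). Against B cells alone the difference of -0.16 ± 0.12 did not pass (adjusted p = 0.276 by limma). SLC2A1 was at 8.35 to 9.38 in monocytes and between 8.20 and 9.72 in lymphocytes, so the groups overlapped. Of the 8 sugar carrier probes 4 were higher in monocytes and 1 was lower, against 28.7% and 36.5% of all probes. SLC2A8 (0.24 ± 0.06) had the smallest rise. The lower one was SLC37A3 (-0.23 ± 0.05). SLC37A4, the glucose 6-phosphate carrier of the endoplasmic reticulum, and SLC50A1, a sugar carrier of the Golgi, had differences of -0.03 ± 0.04 and -0.16 ± 0.07 and did not pass. The genes named in this paragraph other than SLC2A1, and those added below to complete a class, were chosen after their values were seen.

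Amino acid carriers went both ways. SLC7A5, the LAT family exchanger of large neutral amino acids that activated lymphocytes need for growth, was higher in monocytes by 1.45 ± 0.12 log2 (adjusted p = 2.36e-07). It was at 11.13, 11.71, 9.97, 11.37 and 10.35 in the monocytes of ranks 1 to 5. The helper T cells of the same animals had 9.68, 10.17, 8.75, 10.08 and 8.82. In both types the arrays of ranks 3 and 5 were the lowest, so the groups overlapped although monocytes were higher in every animal. SLC43A2, a carrier of branched-chain and aromatic amino acids, rose by 1.00 ± 0.08, with levels of 8.41 to 9.04 in monocytes, against 7.59 to 8.46 in lymphocytes. SLC66A2, a little-studied protein of the PQ-loop family to which the lysosomal cystine carrier belongs, rose by 1.05 ± 0.08 and is described with the B cells.

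SLC38A1, a sodium-coupled glutamine carrier, was higher in monocytes by 0.62 ± 0.12 (adjusted p = 0.000613), at 8.48 to 9.92 against 8.03 to 9.48 in lymphocytes. Its close relative SLC38A2, the carrier induced by amino acid starvation, had a difference of -0.11 ± 0.08 that did not pass (adjusted p = 0.258). Without the rank 1 animal it did, at -0.21 (adjusted p = 0.0386). SLC43A3 (0.73 ± 0.08), grouped here by its family name but known as a carrier of purine nucleobases, was the remaining member that rose. In all, 5 of 16 probes of the class were higher in monocytes and 4 lower, against 28.7% and 36.5% of all probes. The lower ones were SLC6A16 (-0.38 ± 0.09), SLC38A5 (-0.21 ± 0.07) and both probes of SLC15A4. For SLC6A16 monocytes differed from B cells by -1.20 ± 0.11. Its differences from helper and cytotoxic T cells, 0.04 ± 0.11 each, did not pass. For SLC38A5 monocytes were below both T cell types, and the difference from B cells (-0.06 ± 0.09) did not pass.

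SLC15A4 was the amino acid and peptide carrier that fell most in monocytes. It moves histidine and peptides out of endolysosomes and is needed for nucleic-acid sensing Toll-like receptors in B cells and plasmacytoid dendritic cells. Its level was 8.19 to 8.70 in monocytes and 8.82 to 10.68 in lymphocytes, without overlap. The difference was -1.09 ± 0.14 (adjusted p = 1.11e-05), and its dimmer probe gave -0.49 ± 0.13 (adjusted p = 0.00421).

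**Figure D3:**
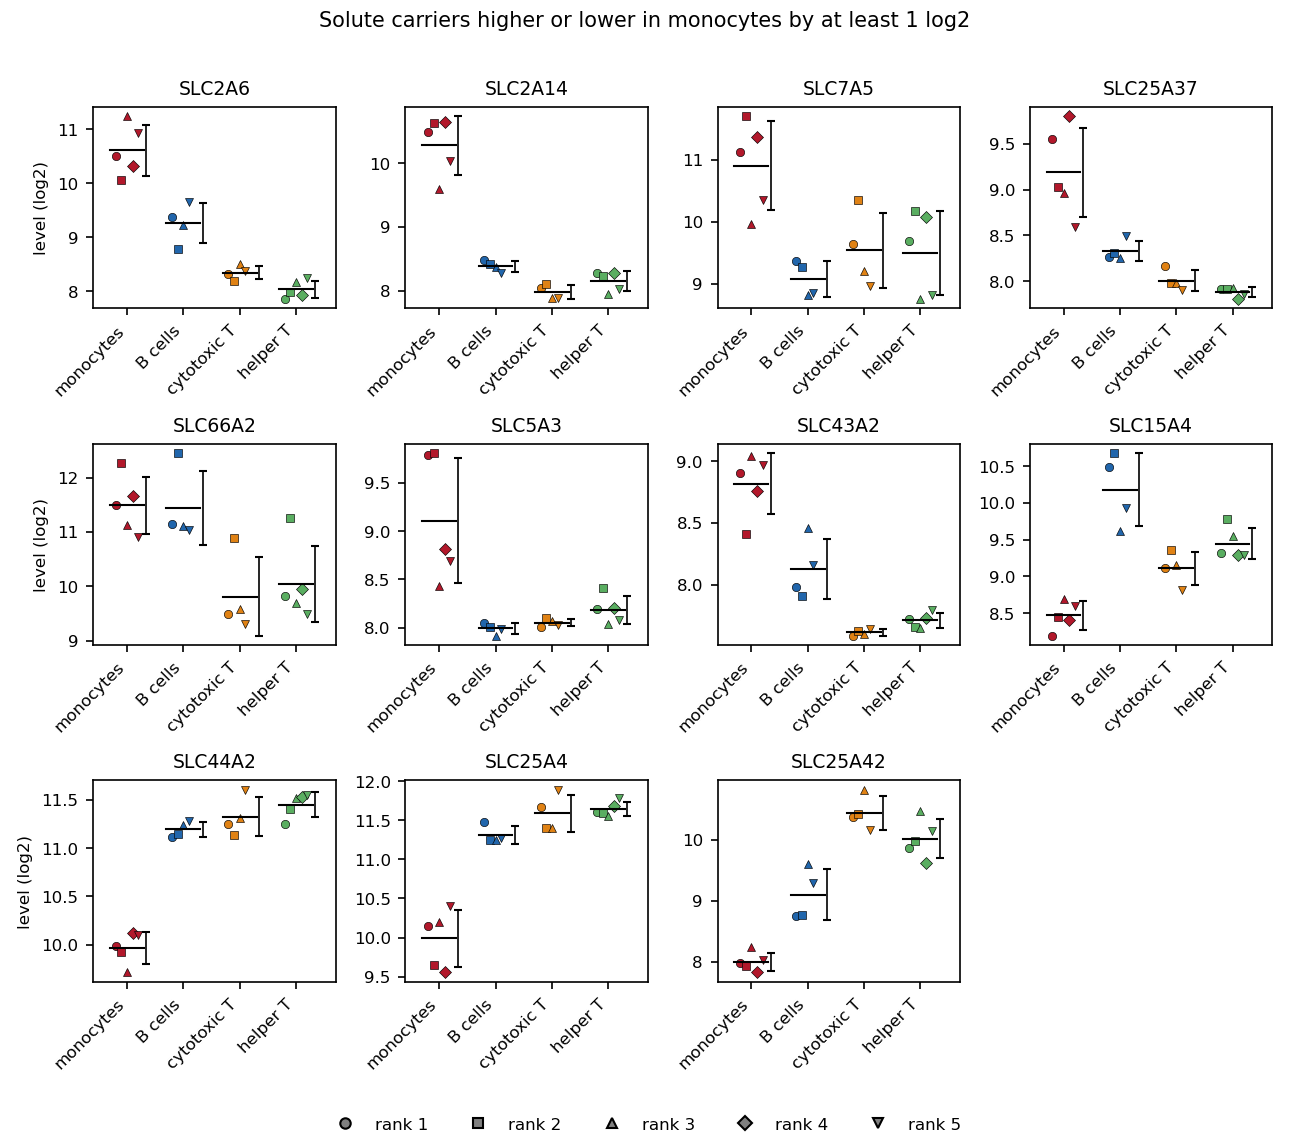
Levels (log2, vertical axis, one scale per panel) of the 11 solute carriers that differed between monocytes and the 3 lymphocyte types by at least 1 log2, in 18 arrays by cell type. Marker shape gives the dominance rank of the animal, the horizontal line the mean and the bar its SD (n = 5, 4, 4 and 5). SLC44A2, SLC25A4, SLC25A42 and SLC15A4 lie lower in every monocyte array than in every lymphocyte array, and SLC2A6, SLC2A14, SLC25A37 and SLC5A3 lie higher.

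Of the 17 probes of mitochondrial carriers, the largest class, 6 were higher in monocytes and 5 lower, against 28.7% and 36.5% of all probes. These carriers had the widest range and a class median of -0.01 log2. Their quartiles (-0.22 and 0.26) lay closer together than those of sugar carriers (-0.06 and 1.31) and amino acid carriers (-0.14 and 0.64). SLC25A42 brings coenzyme A into mitochondria. It had the largest fall of all solute carriers, at 7.98, 7.92, 8.23, 7.82 and 8.03 in monocytes of ranks 1 to 5, against 8.74 to 10.82 in lymphocytes. The difference was -1.81 ± 0.09 (adjusted p = 1.02e-09), and B cells (9.10 ± 0.42, SD, n = 4) lay between monocytes and both cytotoxic T cells (10.45 ± 0.28, n = 4) and helper T cells (10.02 ± 0.32, n = 5). The step between the T cell types did not pass (adjusted p = 0.141). Of the T cell markers, CD3D, CD3G, CD6 and CD2 had higher means in B cells (10.16, 9.31, 8.45 and 8.34) than in monocytes (7.69, 7.90, 7.63 and 7.99). CD3E and LAT did not (7.76 and 7.66 in B cells, 7.77 and 7.71 in monocytes). The part of these markers in the B cell level of SLC25A42 was not tested.

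SLC25A4, the heart and muscle form of the ADP/ATP exchanger, was at 10.15, 9.65, 10.20, 9.55 and 10.40 in monocytes and between 11.24 and 11.89 in lymphocytes. It fell by 1.49 log2 (difference -1.49 ± 0.10, adjusted p = 1.72e-08), and its dimmer probe gave -1.01 ± 0.09. SLC25A38, the mitochondrial glycine carrier needed for haem synthesis, was lower too (-0.85 ± 0.13), at 7.89 to 8.61 against 8.81 to 9.50. SLC25A3, the phosphate carrier that supplies ATP synthase, was bright in every type (12.32 to 12.75 in monocytes) and had a difference of -0.19 ± 0.10 that did not pass.

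Both mitoferrins, which carry iron into mitochondria, were higher in monocytes. SLC25A37 was at 9.56, 9.03, 8.97, 9.80 and 8.59 in monocytes and between 7.81 and 8.50 in lymphocytes, a rise of 1.07 ± 0.13 (adjusted p = 6.75e-06). SLC25A28 rose by 0.79 ± 0.17 (adjusted p = 0.00102). Its monocytes of ranks 1, 2 and 4 were at 12.16, 12.41 and 12.19, while those of ranks 3 and 5, at 11.23 and 10.96, reached down into the lymphocyte range. SLC25A37 is also an erythroid gene. Of the red blood cell markers the haemoglobin genes were bright in all 4 types, and the mean of the 5 measured markers was 9.80 to 11.46 in monocytes and 9.69 to 11.38 in lymphocytes. Of these 5, AHSP was higher in monocytes (0.14, adjusted p = 0.00529), HBB was lower (-0.72, adjusted p = 0.00305), and HBA1, HBA2 and ALAS2 did not pass. ALAS2, the erythroid enzyme of haem synthesis, was at most 7.92 in monocytes and 7.90 in lymphocytes, where the lowest value of the table is 7.501. Their part in the level of SLC25A37 was not tested. SLC25A24, SLC25A15, SLC25A16 and SLC25A27 also rose, by 0.53, 0.37, 0.26 and 0.11. Of these SLC25A27 was a dim member, at a mean of 7.98 in monocytes and 7.97 in B cells. Its difference between those types was -0.001 ± 0.056 and did not pass.

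Among metal carriers 6 of 12 probes were higher in monocytes and 1 was lower, against 28.7% and 36.5% of all probes. SLC41A3, a magnesium carrier, rose by 0.93 ± 0.08, SLC39A11 by 0.58 ± 0.07 and SLC49A4, a lysosomal protein, by 0.50 ± 0.12. The smallest rises were those of SLC48A1 (0.19 ± 0.07) and the dimmer probe of SLC30A5 (0.19 ± 0.07). Neither passed the F test among the 4 cell types (adjusted p = 0.114 and 0.108). The brighter probe of SLC30A5 did not pass in monocytes (0.15 ± 0.10). SLC39A8, the zinc and manganese importer, rose by 0.53 ± 0.11 (adjusted p = 0.000902), in 4 of 5 animals. It was at 8.64, 8.62, 9.21, 8.42 and 8.71 in monocytes, and B cells were the type furthest below (7.81 to 7.98). Against helper T cells alone the difference of 0.24 ± 0.13 did not pass (adjusted p = 0.134). SLC30A7, which loads zinc into the Golgi, was the member that fell (-0.90 ± 0.14). That figure averages unlike types, since monocytes differed from helper and cytotoxic T cells by -1.37 ± 0.16 and -1.04 ± 0.17. Against B cells alone the difference of -0.285 ± 0.173 did not pass (adjusted p = 0.186 by limma). SLC11A2, an iron importer, was at 7.91 to 8.40 in monocytes and had a difference of 0.01 ± 0.07 that did not pass.

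Choline carriers parted in direction. SLC44A2, the choline carrier of the plasma membrane and mitochondria that bears a human neutrophil antigen, was at 9.98, 9.92, 9.71, 10.12 and 10.09 in monocytes. The lymphocyte arrays lay between 11.11 and 11.61, a difference of -1.38 ± 0.06 (adjusted p = 4.00e-10). The spread within each type was small, with SDs of 0.16 in monocytes and at most 0.20 in lymphocytes. SLC44A1 had a difference of 0.64 ± 0.09 in the opposite direction. That figure averages unlike types, since monocytes exceeded B cells by 1.65 ± 0.11 but differed from helper T cells by -0.06 ± 0.10. The ascorbate carrier SLC23A2 (0.53 ± 0.10) and the thiamine carrier SLC19A2 (0.33 ± 0.07) were higher in monocytes.

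Among carriers of inorganic ions 3 of 9 probes were higher in monocytes and 2 lower, against 28.7% and 36.5% of all probes. SLC12A9, a member of the cation and chloride cotransporter family, rose by 0.93 ± 0.08 and SLC24A4, a potassium-dependent exchanger of sodium for calcium, by 0.78 ± 0.10. Both are described with the B cells. SLC9A9, the sodium and proton exchanger of endosomes, was lower (-0.95 ± 0.10), at 7.77 to 7.90 against 8.34 to 9.56 in lymphocytes. SLC12A2, the sodium, potassium and chloride cotransporter, was lower by its brighter probe (-0.42 ± 0.05) and did not pass by its dimmer one (-0.13 ± 0.06). Of the 4 probes for nucleosides and nucleotide sugars SLC35A2 was lower (-0.78 ± 0.11) and SLC35A4 higher (0.13 ± 0.05). Both members of the organic ion family were called (against 65.2% of all probes), SLC22A17 lower (-0.53 ± 0.11) and SLC22A23 higher (0.14 ± 0.05). For SLC22A17 monocytes were below helper and cytotoxic T cells (-1.21 ± 0.13 and -0.48 ± 0.14). They did not differ from B cells in it (0.09 ± 0.14, adjusted p = 0.608 by limma). SLC35A4 and SLC22A23 passed against cytotoxic T cells (0.21 ± 0.06 and 0.29 ± 0.06) but against neither helper T cells nor B cells. Of the 5 probes of other families SLC71A1, SLC61A1 and SLC2A4RG were lower (-0.40, -0.26 and -0.28) and both probes of SLC71A2 higher. Granulocyte markers moved with the monocyte comparison: the 3 measured averaged 11.31 to 12.09 in monocytes and 7.80 to 8.01 in lymphocytes. All 3 were called higher in monocytes, CAMP by 5.82, CSF3R by 4.93 and MPO by 0.39 (adjusted p = 3.95e-06 for MPO by limma). CSF3R and CAMP were bright in monocytes, and MPO was at most 8.40. Of the killer cell markers NCAM1 was higher in monocytes by 2.83, at 9.98 to 11.19, against at most 7.82 in lymphocytes. KLRD1 and GNLY were lower in monocytes (-1.74 and -2.32). The part of these markers in the monocyte levels of the carriers was not tested.

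B cells were then set against the mean of both T cell types within the same fit. All 3 arrays were used in 4 animals, and the rank 4 animal entered with its helper T cell array through the animal term. Of the 78 probes 30 differed (38.5%), against 29.0% of all probes, with 18 higher in B cells (23.1%, against 13.9% of all probes) and 12 lower (15.4%, against 15.1%). At a size of at least 0.5 log2 there were 10 higher (12.8%, against 6.52% of all probes) and 5 lower (6.41%, against 6%). The count rests on the arrays used and on the pairing: over the full set of 20 arrays 9 members were called, all among the 30, against 10.3% of all probes, and without the animal as a block 18 were, against 18.9%. B cell arrays lay above all T cell arrays for 6 probes and below them for 6 (7.69% each), against 6.24% and 6.26% of all probes. Some markers of other cells moved with this comparison. Plasma cell genes were higher in B cells (MZB1 by 1.37 and JCHAIN by 1.72), as were 2 of 5 red blood cell markers (HBA1 by 0.58 and HBA2 by 0.47) and 1 of 3 platelet markers (TUBB1 by 0.13). Of the 5 monocyte markers CST3 was higher (0.59). Their part in the levels of the carriers was not tested.

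SLC66A2 had the largest rise in B cells, 1.51 ± 0.09 log2 (adjusted p = 2.87e-08), in 4 of 4 animals. Its level was 11.14, 12.46, 11.10 and 11.04 in B cells of ranks 1, 2, 3 and 5, against 9.49, 10.88, 9.58 and 9.31 in cytotoxic and 9.83, 11.26, 9.70 and 9.49 in helper T cells of the same ranks. Monocytes differed from B cells by 0.05 ± 0.10 (adjusted p = 0.726). The rank 2 animal was the highest in all 4 types, and its helper T cells lay above the B cells of the other 3 animals. Over the 20 arrays the B cell difference was 0.99 (adjusted p = 0.179).

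SLC6A16 and SLC24A4 were near the bottom of the scale in T cells. SLC6A16, an orphan of the neurotransmitter carrier family, was at 9.31, 8.80, 9.09 and 9.66 in B cells and between 7.91 and 8.08 in all other arrays used, a difference from T cells of 1.24 ± 0.10 (adjusted p = 7.68e-07). SLC24A4 was at 8.94, 9.06, 9.37 and 9.19 in B cells and at 7.91 to 8.06 in T cells (1.14 ± 0.12, adjusted p = 6.46e-06). Monocytes, at 8.73 to 9.63, differed from B cells by 0.02 ± 0.13. The dimmer SLC24A4 probe did not pass in B cells (0.05 ± 0.04).

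SLC2A6, described with the monocytes, was higher in B cells by 1.04 ± 0.13 (adjusted p = 3.61e-05). SLC15A4 was at 10.49, 10.68, 9.61 and 9.93 in B cells, against 8.82 to 9.78 in T cells, and rose by 0.89 ± 0.16 (adjusted p = 0.000643). SLC9A9 was at 8.92, 9.46, 9.56 and 8.95 in B cells, against 8.34 to 9.02 in T cells, and rose by 0.63 ± 0.12 (adjusted p = 0.00111). SLC15A4, SLC9A9, SLC6A16 and the zinc importer SLC39A3 were the 4 members higher in B cells than in each other type (5.13%, against 5.26% of all probes). Over the 20 arrays the T cell comparison no longer passed for SLC15A4 (0.52, adjusted p = 0.358), SLC9A9 (0.40, adjusted p = 0.259) or SLC39A3 (0.40, adjusted p = 0.202).

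SLC12A9 and SLC39A3 completed the named rises. SLC12A9 was higher in B cells by 0.73 ± 0.09 (adjusted p = 3.42e-05), with 9.97, 9.76, 10.59 and 11.31 in B cells of ranks 1, 2, 3 and 5. The difference was 0.51 (adjusted p = 0.0868) with all 20 arrays and 0.75 (adjusted p = 0.106) without the block. SLC39A3 rose by 0.58 ± 0.10, with 9.06 to 10.13 in B cells, against 8.49 to 9.44 in T cells, and its dimmer probe did not pass. The glucose carrier SLC2A1 rose by 0.47 ± 0.10 (adjusted p = 0.00299), and by 0.39 over the 20 arrays, where it did not pass (adjusted p = 0.0511).

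SLC44A1 was the carrier with the largest fall in B cells. This choline carrier was at 8.43, 8.36, 8.87 and 9.20 in B cells, against 9.50 to 10.98 in T cells, without overlap. The difference was -1.52 ± 0.10 (adjusted p = 8.95e-08), and it was the only member lower in B cells than in each other type (1.28%, against 2.37% of all probes). It was -1.02 (adjusted p = 0.142) over the 20 arrays, and the rank 4 B cell array was at 11.97.

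SLC25A42 (-1.17 ± 0.10), SLC30A7 (-0.92 ± 0.15), SLC22A17 (-0.94 ± 0.12) and SLC39A8 (-0.54 ± 0.13) were the other named carriers lower in B cells. SLC30A7 was at 8.61, 8.45, 8.59 and 8.53 in B cells and between 8.76 and 10.23 in T cells. In T cells of both types it was higher in ranks 3 and 5 than in ranks 1 and 2. SLC22A17, a receptor for the siderophore-binding protein lipocalin 2, was at 7.98 to 8.46 in B cells, against 8.40 to 9.87 in T cells. Its difference over the 20 arrays was -0.60 (adjusted p = 0.117). Without the block SLC39A8 was at -0.51 (adjusted p = 0.0824), and without the rank 3 animal, whose helper T cell array was the highest of its type (9.13), at -0.32 (adjusted p = 0.0242).

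**Figure D4:**
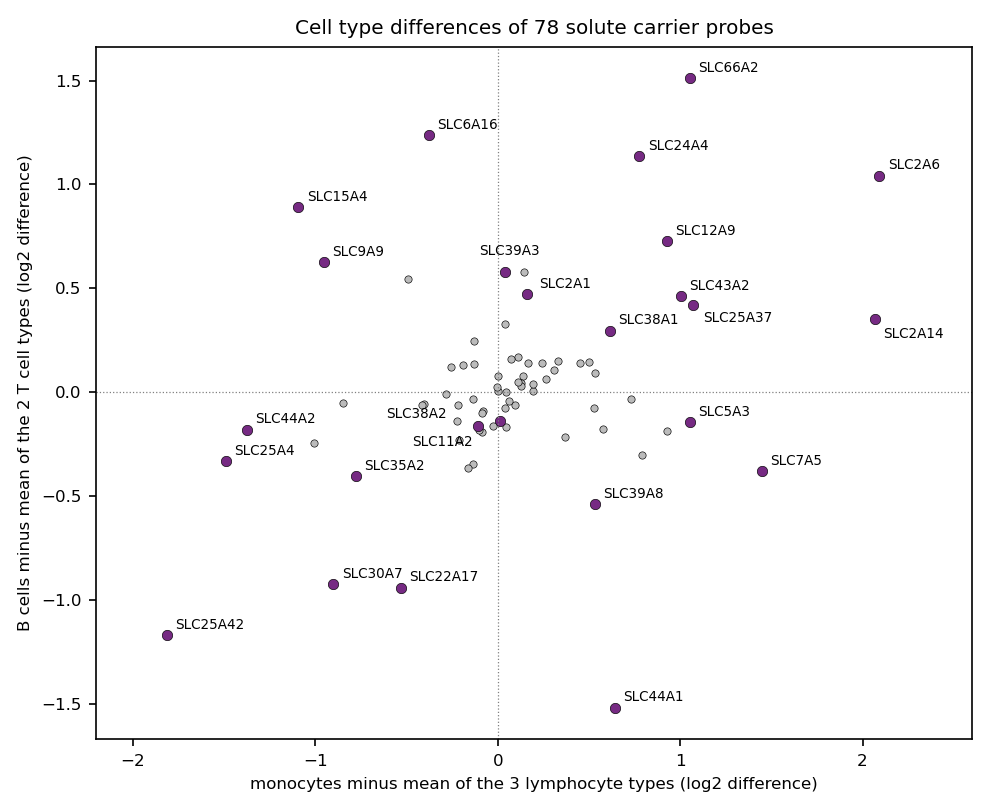
Difference of monocytes from the mean of the 3 lymphocyte types (log2, horizontal axis) against the difference of B cells from the mean of both T cell types (log2, vertical axis) for 78 solute carrier probes. Purple points with names are the carriers of the naming rule and grey points the rest; SLC2A6 lies at 2.09 and 1.04, SLC25A42 at -1.81 and -1.17, SLC15A4 at -1.09 and 0.89, and SLC44A1 at 0.64 and -1.52. The B cell mean enters both axes.

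T cell subsets differed in few solute carriers. Between cytotoxic and helper T cells 2 of 78 probes differed (2.56%), against 2.64% of all probes. Both were lower in cytotoxic T cells (against 1.20% of all probes) and none was higher (against 1.44%). SLC22A17 was at 8.40, 8.98, 8.71 and 9.20 in cytotoxic T cells of ranks 1, 2, 3 and 5, against 9.35, 9.25, 9.64 and 9.74 in helper T cells of the same animals. The rank 4 helper T cell array, which also enters the fit, was the highest of its type at 9.87. The difference was -0.73 ± 0.14 (adjusted p = 0.0118), in 4 of 4 animals. SLC35A2, the Golgi carrier of UDP-galactose, was at 9.78, 9.77, 9.52 and 9.64 in cytotoxic T cells, against 10.41, 10.26, 10.07 and 10.07 in helper T cells, with the rank 4 helper T cell array again the highest at 10.70. The fitted difference was -0.60 ± 0.14 (adjusted p = 0.0379). Without the rank 4 animal the differences were -0.67 for SLC22A17 and -0.53 for SLC35A2, and both passed (adjusted p = 0.0153 and 0.0337). Both carriers were also higher in helper T cells than in B cells and monocytes (2.56% of members, against 0.822% of all probes).

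Both calls were lost with fewer animals while the differences stayed of similar size. SLC22A17 missed the threshold without the rank 1, 3 or 5 animal, at -0.65, -0.67 and -0.80 (adjusted p = 0.1, 0.115 and 0.0506). SLC35A2 missed it without rank 1, 2, 3 or 5, at -0.60, -0.64, -0.60 and -0.64 (adjusted p = 0.206, 0.119, 0.0976 and 0.112). With all 20 arrays the differences were -0.75 for SLC22A17 and -0.64 for SLC35A2 (adjusted p = 0.443 and 0.0737), and no solute carrier passed by limma, against 0.301% of all probes (7 of 78 had an unadjusted p under 0.05, against 6.52% of all probes). CD8A and CD8B averaged 11.38 to 11.86 in cytotoxic T cells and 8.12 to 9.62 in helper T cells. In helper T cells CD8A alone ran from 8.31 to 11.29, and CD8B was at most 8.01. The mean of 3 killer cell markers was 10.31 to 11.18 in cytotoxic T cells, against 8.36 to 9.69 in helper T cells. Of the 3, KLRD1 (2.72) and GNLY (2.59) were higher in cytotoxic T cells. NCAM1, at most 7.82 in both T cell types, had a difference of -0.03 that did not pass. Their part in these differences was not tested.

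**Figure D5:**
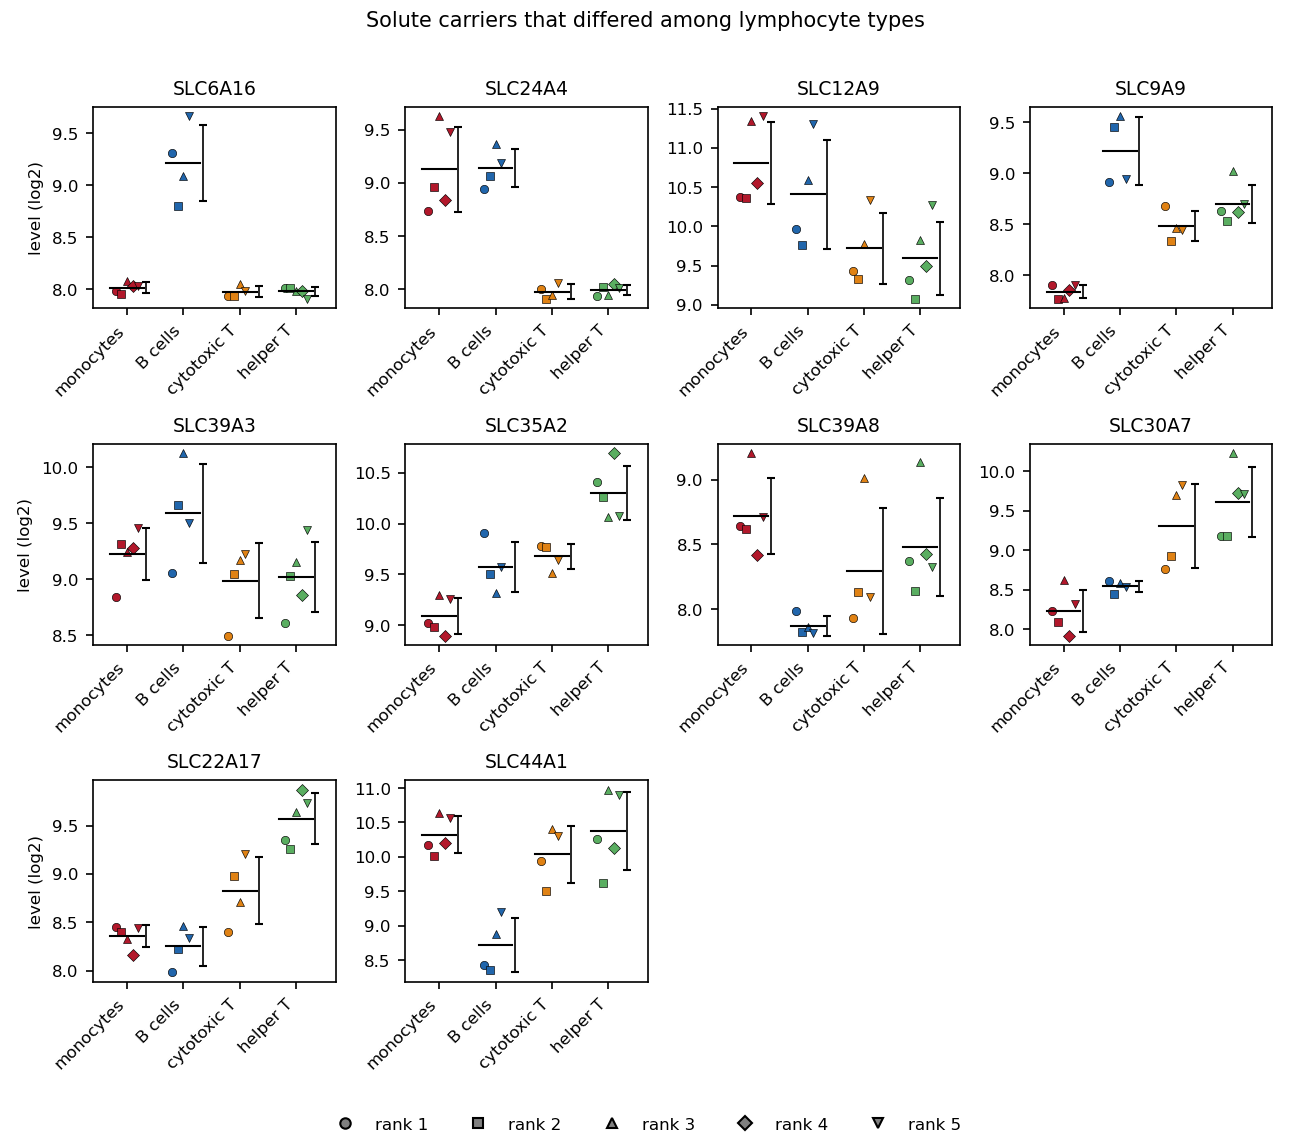
Levels (log2, vertical axis, one scale per panel) of 10 further solute carriers that differed between B cells and T cells or between the T cell types, in 18 arrays by cell type. Marker shape gives the dominance rank, the line the mean and the bar its SD (n = 5, 4, 4 and 5). SLC6A16 stands up in B cells, SLC44A1 is low in B cells, and SLC22A17 and SLC35A2 are highest in helper T cells.

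Of the 8 genes with 2 probes SLC15A4, SLC25A4, SLC71A2 and SLC24A4 passed in monocytes by both probes in the same direction, SLC12A2 and SLC30A5 by 1 of 2, and SLC26A6 and SLC39A3 by neither. The difference was smaller in the dimmer probe for SLC15A4, SLC25A4 and SLC24A4 (0.78 ± 0.10 and 0.11 ± 0.04 for SLC24A4) and larger for SLC71A2 (0.31 ± 0.05 and 0.45 ± 0.04), a little-studied carrier of the major facilitator type.

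Levels of some solute carriers also varied between animals over the cell types. The largest range between animals, over the mean deviation from the cell type means, was that of SLC66A2 at 1.53 log2, a range larger than that of 99.4% of all probes. Its rank 2 animal stood 1.02 above the type means. SLC12A9 ranged over 1.20, with rank 5 at 0.70 and rank 2 at -0.50. SLC7A5 ranged over 1.19, with ranks 2 and 4 at 0.62 and 0.53 and ranks 3 and 5 at -0.57 and -0.51. SLC23A2, SLC2A1 and SLC30A5 also had rank 3 and rank 5 below the mean, and SLC44A1 had them above it. The median range was 0.30 over the solute carriers and 0.28 over all probes. Since each animal is the sole holder of its rank and social group, these ranges carry no test.

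Dominance rank was followed as a slope over the 5 animals in monocytes and in helper T cells. By limma no solute carrier passed an adjusted p of 0.05 in either type, and no other probe did (0% of all probes called). At an unadjusted p under 0.05 there were 3 members in monocytes (3.85%, against 6.45% of all probes) and 4 in helper T cells (5.13%, against 5.57%). The largest monocyte slope relative to its error was that of SLC5A3 at -0.32 ± 0.12 log2 per rank step (adjusted p = 0.647 by limma). In helper T cells it was that of SLC22A17 at 0.14 ± 0.05 (adjusted p = 0.770 by limma). Slopes in the 2 types differed for no probe at an adjusted p of 0.05, and for 4 members at an unadjusted one (5.13%, against 6.20% of all probes).

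Other genes of transport were read from a list of 41, of which 20 were measured. In monocytes 12 of the 20 were higher and 1 lower, against 28.7% and 36.5% of all probes, and the median difference was 0.32 log2. Of 4 genes of glucose use HK3, the myeloid hexokinase, rose by 1.92 ± 0.07, PFKFB3, an activator of glycolysis, by 1.22 ± 0.09 and HK1 by 0.52 ± 0.15. HK2 had a difference of 0.08 ± 0.05 that did not pass. Of 3 iron genes HMOX1, which degrades haem, rose by 3.54 ± 0.30 and CYBRD1, a ferric reductase, by 3.32 ± 0.15, and the transferrin receptor gene TFRC did not pass (0.11 ± 0.12).

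Of 6 genes that link lysosomal amino acids to growth control, LAMTOR2 (1.43 ± 0.07), LAMTOR4 (1.15 ± 0.10) and RRAGD (0.46 ± 0.07) were higher in monocytes. RRAGC had a difference of -0.09 ± 0.11 there that did not pass and was higher in B cells than in T cells by 1.34 ± 0.12 (adjusted p = 1.95e-06), and LAMTOR2 by 0.44 ± 0.08. Carriers with other names included UCP2, a mitochondrial uncoupling protein, which was lower in monocytes (-1.13 ± 0.13). They also included SLCO3A1, an organic anion carrier that was lower in B cells than in T cells (-1.44 ± 0.12, adjusted p = 8.58e-07) and differed between monocytes and lymphocytes by 0.07 ± 0.11. Against T cells 4 of the 20 were higher in B cells and 1 lower, against 13.9% and 15.1% of all probes, and between the T cell types none was called by limma, against 2.64% (1 had an unadjusted p under 0.05, against 12.1% of all probes).

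Among all probes, those whose 4 cell type means ran most like SLC2A6 were LRP10, SCPEP1, RNF152, FAM43A and RETREG2 (Pearson r of at least 0.9997 over 4 means). Those most like SLC25A42 were DLGAP4, NFATC2IP, DCAF16, AKAP11 and FECH (r of at least 0.9996). With only 4 points such values are common, as 129 and 149 probes exceeded 0.99.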

How the data were processed

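Biotin-labelled cRNA was hybridised to Illumina arrays, per the labels' protocols, and processed with lumi, per the submitters' processing notes; the notes add no steps or parameters. The deposited values were used as log2 (7.501 to 14.77, base not stated). Sorted columns match to within 0.000913, which is 1 common distribution made by the authors, although the table is named as not normalized, and it is identical to the second deposited table. Probes were named through the platform annotation (6055 with 1 symbol, 1 with several, 1247 with none).

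limma 3.58.1 in R 4.3.3 (lmFit, eBayes) was fitted over all 7303 probes and 18 arrays with cell type and animal as terms, and p-values were adjusted by Benjamini-Hochberg within each contrast (threshold 0.05, two-sided). Titles show that arrays of 1 rank share an animal; deviations from type means correlated at 0.238 to 0.809 (median 0.478) in 25 of 25 same-animal pairs. Errors are SE of the fit unless named SD. The scripts were tested on simulated data. Precision is limited by the number of arrays.

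A gene was described by its brightest probe. Named genes are members called in monocytes at 1 log2 or more, between lymphocyte types at 0.5 or more (at most 8 per direction), and the 9 measured of 25 listed carriers. Members and lists were chosen with earlier results of these data known. Classes follow family numbers. No sequences or coordinates were used here.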

Additional observations from a re-analysis of the deposited data

Results flagged for a closer look

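Within a cell type, single arrays lay far from the others in 6 of the 100 combinations of a named carrier and a cell type. Chance gives about 1 in 20 for independent combinations. These are not independent, since the arrays of a rank share an animal, so the count cannot be judged against that rate. SLC66A2 was high in the rank 2 animal in B cells (12.46, against 11.04 to 11.14 in the other B cell arrays), in cytotoxic T cells (10.88, against 9.31 to 9.58) and in helper T cells (11.26, against 9.49 to 9.95). SLC38A1 was high in the B cells of the same animal (9.48, against 8.29 to 8.43). SLC39A8 was high in the helper T cells of rank 3 (9.13, against 8.14 to 8.43). SLC25A4 was high in the B cells of rank 1 (11.47, against 11.24 to 11.27).

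In the 2 rank 4 arrays that were left out, 8 solute carrier probes (10.3%) exceeded every other array by more than 1 log2 in both, against 10.5% of all probes. SLC25A4 was at 14.36 in the lower and 14.63 in the higher of the 2 arrays, against at most 11.89 elsewhere. The lower of the 2 values was 11.02 for SLC19A2, 10.91 for SLC71A1, 10.63 for SLC25A22, 10.36 for SLC22A23, 10.15 for SLC48A1, 9.84 for SLC25A45 and 9.74 for SLC6A11. Elsewhere these 7 were at most 9.29, 9.78, 8.20, 8.73, 8.79, 8.22 and 8.43 in the same order.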

How the results depend on the processing

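Over 12 alternatives (all 20 arrays, no animal term, each animal left out, array weights, renewed quantile normalization, a trended robust prior, 1 probe per gene, dim probes left out), 348 of 371 values of named carriers kept their direction and side of the threshold, 18 lost the call, 1 gained it and 4 changed sign. The 4 were all of SLC11A2 in monocytes, which passed under none: -0.0167 with no replicate block, -0.0198 with array weights, and -0.071 to 0.0772 with each animal left out (below 0 without rank 3 or 5). All rises and falls of at least 1 log2 named for monocytes kept theirs. On 20 arrays 9 carriers were called for B cells against T cells (10.3% of all probes), 0 for cytotoxic against helper T cells (0.301%), 31 and 28 for monocytes against helper and cytotoxic T cells (35.5% and 32.3%), 9 and 4 for B cells against helper and cytotoxic T cells (9.19% and 6.33%), and 35 among all types (37.3%). With no replicate block the B cell counts were 18 (both T cell types, 18.9% of all probes), 16 (helper, 15.9%) and 12 (cytotoxic, 15.2%), and SLC12A9 and SLC39A8 lost the call. Leaving out each animal gave 0 to 2 carriers for cytotoxic against helper T cells: 0 without rank 1, 3 or 5 (0.986%, 1.45% and 1.60% of all probes) and 1 without rank 2 (2.31%). It gave 18 to 26 for B cells against helper T cells, with 18 without rank 1 (19.1%) and 19 without rank 2 (19.6%). Array weights gave 5 carriers between the T cell types (7.90% of all probes). The cause was not tested. Rank slopes gave 0 carriers under every alternative run. Raw intensities and detection calls were not used here, so signal over background is not known for the dim probes, SLC11A2 among them, which the filter on dim probes removes.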
